A study of Mus musculus with 12 samples.

Results

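Expression of the sine oculis-type homeobox genes Six4 and Six5, the EYA genes Eya1, Eya2 and Eya4, the TEAD genes Tead1, Tead2 and Tead4 and the TEAD cofactor gene Vgll2 was followed in differentiating muscle cells. These 9 genes were taken by name among 19938 genes on the array with exactly 1 gene symbol per transcript cluster, the set of probes that stands for a transcript. All 9 were measured. Where a gene had several clusters the 1 with the highest mean over the 12 arrays was used, which concerned Tead1 alone. The cells were C2i-Myog, made from C2C12 mouse myoblasts as a stable line that carries a doxycycline-inducible cDNA for Flag-tagged mouse myogenin (Myog). The labels name a stable line and do not say whether it is 1 clone. Every group carried this transgene, was grown in medium with 10% FCS to near confluence and then spent 48 h in medium with 1% horse serum, 10 µg/mL insulin and 10 µg/mL transferrin. The control group (3 arrays) received no agent. The Dox group (3 arrays) received doxycycline at 0.2 µg/mL, the SB group (3 arrays) received SB203580, an inhibitor of p38α and p38β MAP kinases, at 10 µM, and the SB+Dox group (3 arrays) received both. The labels of the control arrays name no differentiation, and the time is that of the treatment protocol given with every sample. Doxycycline was not given to cells lacking the transgene, so the agent and the induced Myog cannot be told apart.

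Sine oculis (Six4, Six5 and their relatives) proteins bind DNA at the MEF3 element of muscle promoters and activate transcription together with EYA proteins, which bind no DNA themselves and also have phosphatase activity. TEAD proteins bind the MCAT element and act through cofactors, among them YAP, TAZ and the vestigial-like (VGLL) proteins. In the muscle lineage sine oculis and EYA proteins act upstream of the myogenic bHLH factors and again during differentiation, and Tead4 is a known target of MyoD and Myog in differentiating C2C12 cells.

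Values are log2 RMA signals, a background-corrected and normalised measure in which a difference of 1 is a doubling. They are compared only within a gene, because signals of different probes are not on a common scale. Array medians lay between 5.29 and 5.44 among the tested clusters, and no background level was used here. Replicates correlated across clusters at 0.989 or above. On the second principal component SB replicate 3 (-8.47) lay away from SB replicates 1 and 2 (20.26 and 11.74). Each call given for Tead4, Eya1, Eya4 and Tead2 held without SB replicate 3. SB+Dox replicate 3 (-29.94) also lay away from SB+Dox replicates 1 and 2 (-12.17 and -17.15). Without SB+Dox replicate 3, Tead4 lost its calls in SB+Dox against SB and against control, and Eya4 its call in SB+Dox against control. All 7 muscle lineage markers lay above the median gene, and their mean log2 level was 9.95 to 10.27 on the control arrays and 10.06 to 10.19 on the Dox arrays, but 9.18 to 9.58 with SB and 9.69 to 9.79 with SB+Dox. From control to SB 4 of the 7 fell, Myog itself (-2.21), Mymk (-1.62), Myod1 (-0.56) and Cdh15 (-0.52), Myf5 rose (0.60, adjusted p = 0.021), and Des and Chrna1 were not called. Endothelial and leukocyte markers (4 and 5 measured) all lay below the median gene, while 1 of 5 adipocyte, 3 of 6 osteoblast and chondrocyte and 1 of 2 neural markers lay above it. Of the neural pair Tubb3 rose from control to SB (1.71, adjusted p = 0.00177), and Sox10 changed by -0.02 (adjusted p = 0.966). The part of these marker differences in the results that follow was not tested. Nothing in the labels ties replicates to separate cultures, so p-values measure the spread between these arrays, which may be technical. In bulk RNA fewer cells of a type and less RNA per cell cannot be told apart.

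Myog, the induced gene, was read as a check of the labels, which its values did not settle. It measured 9.66, 10.18 and 9.89 in control, 10.39, 10.30 and 10.40 in Dox, 6.93, 7.96 and 8.21 in SB and 8.10, 8.23 and 8.68 in SB+Dox. The Dox arrays all lay above the control arrays, while SB and SB+Dox overlapped, and neither difference with doxycycline passed the test (limma adjusted p = 0.467 and 0.157). The sources used here do not tell whether the Myog probes read the transgene, the endogenous transcript or both.

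The promoters below show the elements these factors read, in genes measured here. Each line holds the 250 bases before a RefSeq start site (GRCm38.p6), and capitals mark matches on either strand to MEF3 (TCAGGTTTC), MCAT (CATTCC) or the E-box CAGCTG, which myogenic bHLH factors favour. Of the 9 genes, 5 had an entry in the promoter table and 4 are named only. Myog (chr1:134289754-134290003, plus strand) and Six4 (chr12:73113246-73113495, minus strand) are printed for their MEF3 match, Tnnt2 (chr1:135836084-135836333, plus strand) and Tnnc1 (chr14:31208062-31208311, plus strand), cardiac troponin T and slow troponin C, for their MCAT match.
Myog: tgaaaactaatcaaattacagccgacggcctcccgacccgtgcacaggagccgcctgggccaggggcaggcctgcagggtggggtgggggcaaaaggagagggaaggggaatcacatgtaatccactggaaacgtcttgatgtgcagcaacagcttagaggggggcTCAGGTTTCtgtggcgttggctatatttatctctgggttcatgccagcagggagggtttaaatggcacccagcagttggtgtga
Six4: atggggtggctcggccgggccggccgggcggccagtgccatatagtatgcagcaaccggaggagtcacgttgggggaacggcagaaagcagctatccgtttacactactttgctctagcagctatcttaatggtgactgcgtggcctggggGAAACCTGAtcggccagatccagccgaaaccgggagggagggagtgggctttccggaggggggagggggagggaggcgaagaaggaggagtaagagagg
Tnnt2: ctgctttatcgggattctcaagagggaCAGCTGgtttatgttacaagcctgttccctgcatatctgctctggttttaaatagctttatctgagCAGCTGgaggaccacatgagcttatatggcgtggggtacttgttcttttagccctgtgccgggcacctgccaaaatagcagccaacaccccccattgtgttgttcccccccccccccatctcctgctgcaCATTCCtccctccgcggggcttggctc
Tnnc1: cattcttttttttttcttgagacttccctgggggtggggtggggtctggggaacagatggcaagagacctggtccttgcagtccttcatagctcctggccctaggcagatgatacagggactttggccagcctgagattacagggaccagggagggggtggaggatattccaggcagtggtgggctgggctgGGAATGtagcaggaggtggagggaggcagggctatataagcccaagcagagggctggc
The MEF3 letters begin 84 bases before the start in Myog on the gene's own strand, and 99 bases before it in Six4 on the opposite strand. They occurred in 127 of 32851 promoter windows of that length (0.387%). The MCAT letters begin 27 bases before the start in Tnnt2 and 58 bases before it in Tnnc1, and occurred in 12.6% of windows, and CAGCTG occurred in 13% of them. MCAT letters were also found in a window of each of Acta1, Acta2, Aldoa, Myh7 and Igfbp5, which are not printed. Besides Tnnt2, CAGCTG was found in the windows of Acta1, Acta2 and Ckm. The windows of Six5, Eya4, Tead2 and Vgll2 held none of the 3 sets of letters, nor did that of the other Six4 start. A match describes the letters, and binding was not measured here.

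The TEAD genes moved in different directions. Tead4 was lower in both groups with the inhibitor, and Tead2 was higher in SB+Dox when set against Dox. Tead1, by its brighter cluster, passed the test in no comparison. Tead3, outside the genes followed here and taken from a list of further family members, was also lower in SB+Dox against Dox. That change was -0.36 (limma adjusted p = 0.0297). From control to SB Tead3 changed by -0.30 (adjusted p = 0.102) and was not called. How its call fared under the alternatives is not given here.

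Tead4 measured 8.18, 8.43 and 8.17 in control, 8.55, 8.94 and 8.97 in Dox, 6.66, 7.01 and 6.94 in SB, and 7.14, 7.93 and 7.61 in SB+Dox. The groups fell in the order Dox, control, SB+Dox, SB, and no neighbouring groups overlapped. Tead4 fell 2.62-fold from control to SB (log2 change -1.39, SE 0.17, limma adjusted p = 2.00e-04, n = 3 per group) and, with doxycycline present, was 2.4-fold lower with the inhibitor than without it (-1.26, SE 0.17, adjusted p = 2.17e-04). These 2 calls held under every alternative and without any 1 array. From SB to SB+Dox Tead4 rose by 0.69 (1.61-fold, SE 0.17, adjusted p = 0.0243). That step was 49.6% of the distance from the SB mean to the control mean. Against control, the SB+Dox group was still 1.63-fold lower (-0.70, SE 0.17, adjusted p = 0.0278). Without the inhibitor the change with doxycycline was 0.56 (95% interval 0.19 to 0.93, adjusted p = 0.087) and did not pass, although every Dox array lay above every control array. It passed in 4 alternatives, with the replicate block, with only the 2 groups in the fit and without SB+Dox replicate 1 or 2 (adjusted p 0.00728 to 0.049). The doxycycline changes with and without the inhibitor differed by 0.13 (95% interval -0.39 to 0.65, adjusted p = 0.872), so a difference between them was not shown. The rise from SB to SB+Dox lost its call without SB replicate 1, SB+Dox replicate 2 or SB+Dox replicate 3, with only the 2 groups in the fit and with every cluster tested (adjusted p 0.0669 to 0.112). The remaining difference from control lost its call without control replicate 1, 2 or 3, without SB+Dox replicate 1 or 3 and with every cluster tested (adjusted p 0.0607 to 0.114).

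Tead2, which is known for its role in early embryonic and neural development, measured 7.99, 8.04 and 7.72 in control, 7.62, 7.81 and 7.45 in Dox, 8.02, 8.60 and 8.40 in SB and 8.17, 8.23 and 8.01 in SB+Dox. All 3 SB+Dox arrays lay above all 3 Dox arrays, whereas the highest control array reached above the lowest SB array. Against Dox, Tead2 in SB+Dox was 1.42-fold higher (0.51 on the log2 scale, SE 0.14, adjusted p = 0.0344), and its change from control to SB was 0.42 (95% interval 0.12 to 0.73, adjusted p = 0.109), which passed with the replicate block, after quantile normalisation and without SB replicate 1 (adjusted p 0.0223 to 0.044). The call against Dox was lost without Dox replicate 1 or 3, without SB+Dox replicate 1 or 2 and with every cluster tested (adjusted p 0.0898 to 0.16).

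Tead1, a widely expressed TEAD gene, measured 9.16, 9.20 and 8.71 in control, 8.83, 9.06 and 8.78 in Dox, 9.35, 9.04 and 9.50 in SB and 9.23, 9.41 and 9.42 in SB+Dox. Its groups overlapped except SB+Dox against Dox and SB+Dox against control. The larger of these changes was 0.46 against Dox (95% interval 0.16 to 0.77, adjusted p = 0.0554). It passed in 9 alternatives, among them leaving out control replicate 3, Dox replicate 2, SB replicate 2 or SB replicate 3 (adjusted p 0.0176 to 0.0499). A second Tead1 cluster, dimmer on every array, gave 0.41 in the same comparison (adjusted p = 0.0499).

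**Figure D1:**
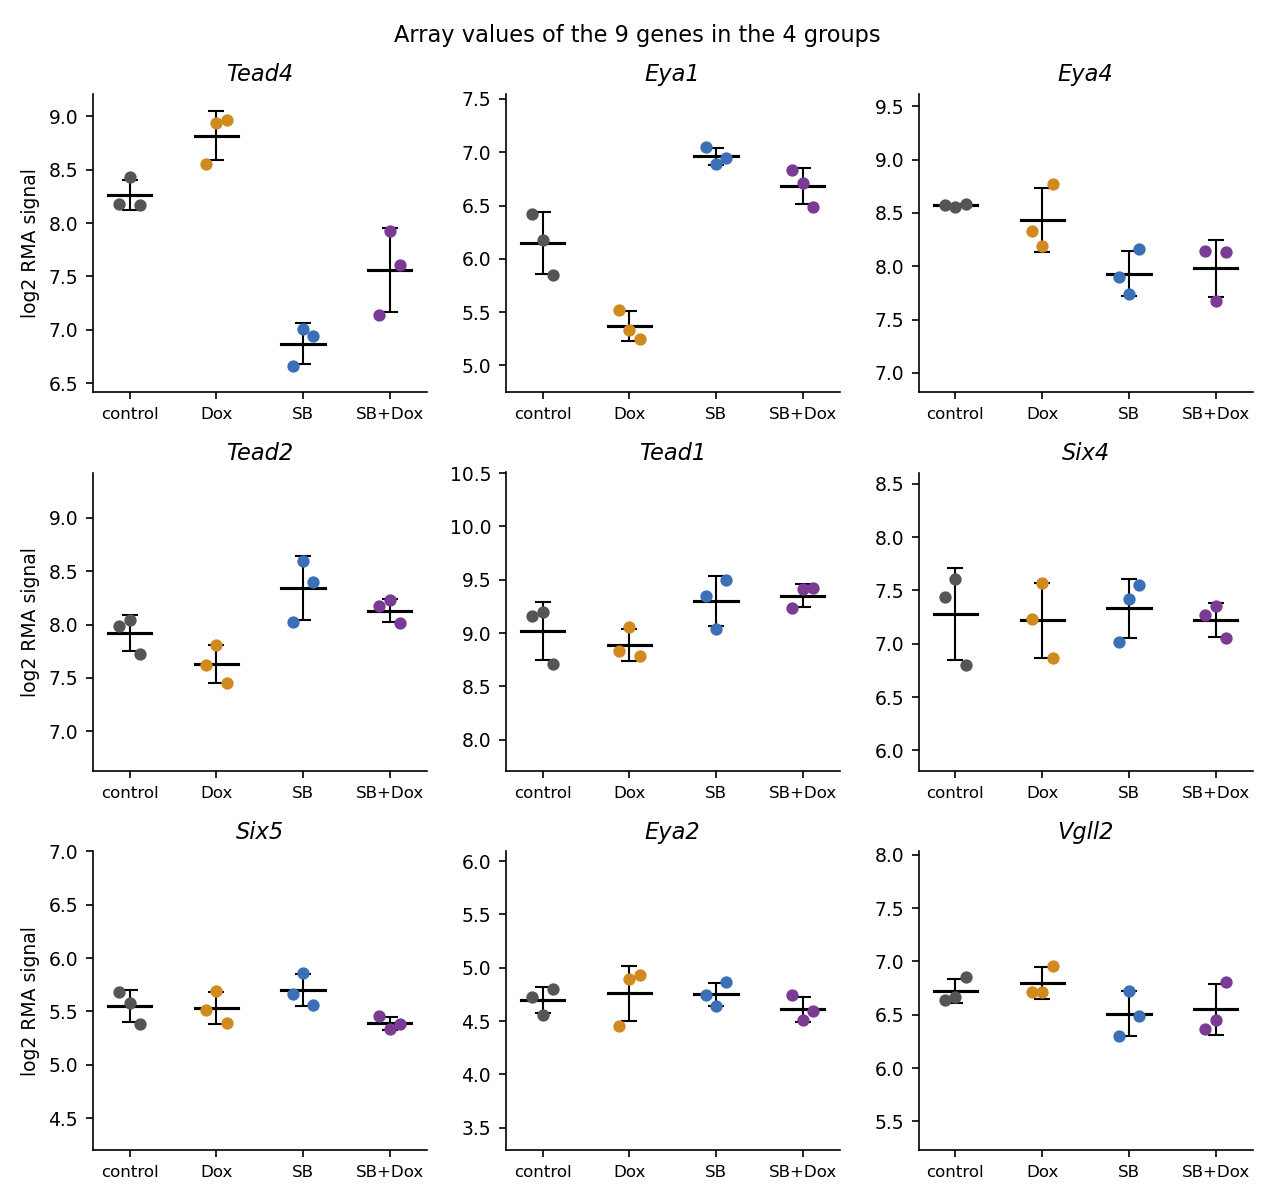
Log2 RMA signal of the 9 genes on each array (points), by group, with the group mean (line) and SD (bars), n = 3 arrays per group. Every panel spans the same number of log2 units, and Tead4 runs from 6.66 in SB to 8.97 in Dox while Eya1 runs the other way, from 5.25 in Dox to 7.05 in SB.

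The EYA genes also divided. Eya1 was higher with the inhibitor and lower with doxycycline alone, Eya4 was lower with the inhibitor, and Eya2 passed the test nowhere.

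Eya1, needed for early organ formation, measured 6.42, 6.18 and 5.85 in control, 5.52, 5.33 and 5.25 in Dox, 7.05, 6.89 and 6.95 in SB and 6.83, 6.71 and 6.49 in SB+Dox. The order of the groups, SB, SB+Dox, control and Dox, was that of Tead4 turned round, and no neighbouring groups overlapped. Eya1 rose 1.75-fold from control to SB (log2 change 0.81, SE 0.14, adjusted p = 0.00213) and fell 1.73-fold from control to Dox (-0.79, SE 0.14, adjusted p = 0.00239). The widest difference lay between the doxycycline groups, 2.48-fold higher with the inhibitor (1.31, SE 0.14, adjusted p = 1.88e-05). These 3 calls held under every alternative and without any 1 array. From SB to SB+Dox its change was -0.29 (95% interval -0.58 to 0.00, adjusted p = 0.243), so doxycycline passed the test without the inhibitor and not with it. The difference between those changes was 0.50 (95% interval 0.09 to 0.91, adjusted p = 0.313) and was not called. Against control, SB+Dox was 1.44-fold higher in Eya1 (0.52, SE 0.14, adjusted p = 0.0374). That call was lost without control replicate 2 or 3, SB replicate 2, SB+Dox replicate 1 or 2, with only the 2 groups in the fit and with every cluster tested (adjusted p 0.0517 to 0.154).

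Eya4, a family member known from inherited deafness and dilated cardiomyopathy, measured 8.57, 8.56 and 8.58 in control, 8.33, 8.19 and 8.77 in Dox, 7.90, 7.74 and 8.16 in SB and 8.14, 7.67 and 8.13 in SB+Dox. The control arrays differed by 0.02 at most and all lay above the arrays of both groups with the inhibitor, while the Dox arrays lay on either side of control. Eya4 fell 1.56-fold from control to SB (log2 change -0.64, SE 0.16, adjusted p = 0.0241) and by 1.51-fold from control to SB+Dox (-0.59, SE 0.16, adjusted p = 0.0419). In SB+Dox against Dox the change was -0.45 (95% interval -0.79 to -0.11, adjusted p = 0.0932), which passed with the replicate block alone (adjusted p = 0.0214). Doxycycline added to the inhibitor gave a change of 0.05 (95% interval -0.29 to 0.38, adjusted p = 0.89). The fall from control to SB lost its call without control replicate 1, 2 or 3, without SB replicate 1 or 2 and with every cluster tested (adjusted p 0.0676 to 0.125). The difference between SB+Dox and control lost it in 10 of 19 alternatives, among them leaving out any control array, any SB+Dox array, Dox replicate 1 or SB replicate 1 (adjusted p 0.0528 to 0.193).

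Eya2, an EYA gene with a known part in embryonic muscle, measured 4.73, 4.56 and 4.80 in control, 4.45, 4.89 and 4.93 in Dox, 4.74, 4.64 and 4.87 in SB and 4.74, 4.51 and 4.59 in SB+Dox. All of these values lie under the median of their array, so the probes were not shown to read above background. Its groups overlapped in every comparison, and its changes between groups ran from -0.14 to 0.06.

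Neither sine oculis gene passed the test. Six4, which acts redundantly with its relatives in muscle, measured 7.44, 7.61 and 6.80 in control, 7.23, 7.57 and 6.87 in Dox, 7.02, 7.42 and 7.55 in SB and 7.27, 7.35 and 7.05 in SB+Dox. The spread within control (SD 0.43) exceeded every difference between group means, and the change from control to SB was 0.04 (95% interval -0.40 to 0.49). Replicate 3 was the lowest array of control, Dox and SB+Dox and the highest of SB. Six5, the neighbour of the myotonic dystrophy kinase gene, measured 5.68, 5.58 and 5.38 in control, 5.51, 5.69 and 5.39 in Dox, 5.66, 5.86 and 5.56 in SB and 5.46, 5.34 and 5.38 in SB+Dox. Its SB+Dox arrays lay below its SB arrays with a change of -0.30 (95% interval -0.54 to -0.07, adjusted p = 0.128). Its values lie near the array medians.

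Vgll2, a VGLL cofactor of TEAD proteins enriched in skeletal muscle, measured 6.64, 6.67 and 6.85 in control, 6.71, 6.71 and 6.96 in Dox, 6.30, 6.72 and 6.49 in SB and 6.37, 6.45 and 6.81 in SB+Dox. The groups overlapped in every comparison, and the change from control to SB was -0.21 (95% interval -0.50 to 0.07, adjusted p = 0.47).

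SB against control asks what the inhibitor did without doxycycline. Of the 9 genes 3 passed, Eya1 higher and Eya4 and Tead4 lower, where 6.38% of all tested clusters passed (2.51% higher and 3.87% lower). The arrays of both groups did not overlap for these 3 genes, as for 20% of all clusters. SB+Dox against Dox asks the same with doxycycline present, and 3 passed, Eya1 and Tead2 higher and Tead4 lower, beside 10.4% of all clusters (6.97% higher and 3.43% lower). Arrays did not overlap for 5 genes, these 3 with Eya4 and Tead1, against 29.1%. Dox against control had 1 gene, Eya1, lower, beside 5.31% (1.43% higher and 3.88% lower), and 2 genes without overlap, Eya1 and Tead4, against 20%. SB+Dox against SB had 1 gene, Tead4, higher, beside 7.11% (4.4% higher and 2.71% lower), and 3 without overlap, Tead4, Eya1 and Six5, against 25%. SB+Dox against control had 3 genes, Eya1 higher and Eya4 and Tead4 lower, beside 5.26% (2.84% higher and 2.42% lower), and 4 without overlap, these and Tead1, against 23.2%. The comparisons share arrays, so their counts are not independent. The interaction, which subtracts the doxycycline change in cells without the inhibitor from that in cells with it, was called by limma for 0 of 9 genes, beside 0.895% of all clusters. At an unadjusted p under 0.05 there was 1 of 9 (Eya1), near the 11.7% of all genes at that threshold. The median change of the 9 genes in SB against control was 0.05, against 0.03 over all genes.

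**Figure D2:**
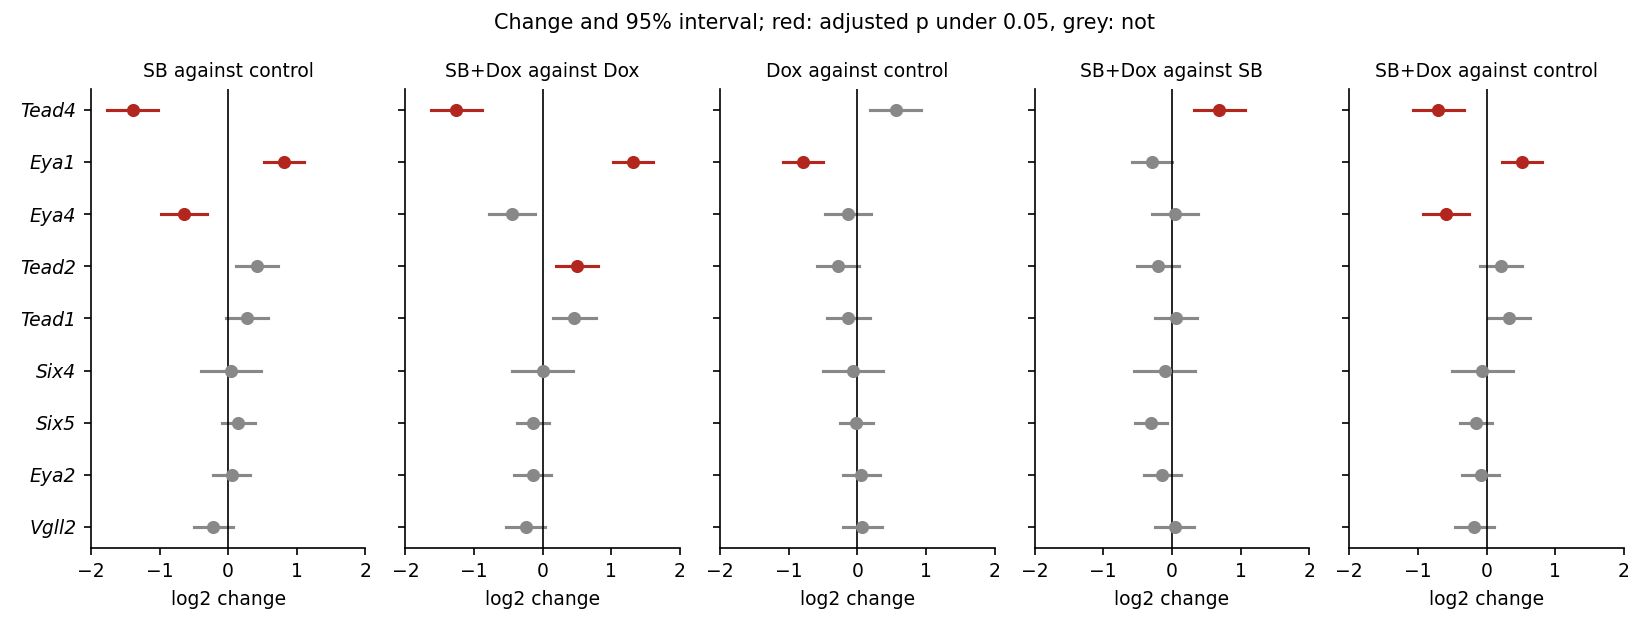
Log2 change of the 9 genes in 5 comparisons (points) with the 95% interval (lines), n = 3 arrays per group, with red for adjusted p under 0.05. Tead4 lies at -1.39 and -1.26 in the 2 comparisons for the inhibitor, where Eya1 lies at 0.81 and 1.31.

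Other members and cofactors of these families came from a list of 13 genes, of which 12 were measured and 1 was not analysed here. This list and the later ones were chosen with earlier results of these data known, so their counts are a description. In SB against control 2 were lower and 0 higher (all clusters 3.87% and 2.51%), with a median change of 0.03, as over all genes. Vgll3, a further VGLL cofactor, fell 1.93-fold (log2 change -0.95, SE 0.16, adjusted p = 0.00262). Wwtr1, the gene of TAZ, fell by 0.41 (SE 0.12, adjusted p = 0.0471), a call lost in 13 of 19 alternatives, which include leaving out any control or Dox array, SB replicate 1 or 2, or SB+Dox replicate 1 (adjusted p 0.0502 to 0.203). In SB+Dox against Dox 3 were lower, Tead3 among them, and 0 higher (all clusters 3.43% and 6.97%). In SB+Dox against control 1 was lower (all clusters 2.42%). The limma fit called 0 in SB+Dox against SB, 0 in Dox against control and 0 for the interaction. At an unadjusted p under 0.05 there were 3, 2 and 2 of 12 (25%, 16.7% and 16.7%), where all genes gave 21.3%, 15% and 11.7%. In SB against control 6 of 12 had such a p (50%, all genes 17.6%). In SB+Dox against Dox there were 5 (41.7%, all genes 21.3%) and in SB+Dox against control 3 (25%, all genes 16%).

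The Hippo pathway, a kinase cascade that keeps YAP and TAZ out of the nucleus, had 19 of 20 listed genes measured. In SB against control 4 were lower and 1 higher (all clusters 3.87% and 2.51%), with a median of -0.09. The LIM protein gene Ajuba fell 1.78-fold and the kinase gene Lats2 fell 1.67-fold (log2 changes -0.84 and -0.74, SE 0.14 and 0.09, adjusted p = 0.00201 and 1.39e-04). Taok1, an upstream kinase, and Amotl2, an angiomotin family member that binds YAP, fell by 0.64 and 0.61 (SE 0.15 and 0.12, adjusted p = 0.0177 and 0.0045). The Taok1 call was lost without control replicate 2, SB replicate 1 or SB replicate 2, and with every cluster tested (adjusted p 0.068 to 0.098). The counts higher and lower were 5 and 4 in SB+Dox against Dox (all clusters 6.97% and 3.43%) and 0 and 4 in Dox against control (1.43% and 3.88%). They were 2 and 1 both in SB+Dox against SB (4.4% and 2.71%) and in SB+Dox against control (2.84% and 2.42%). For the interaction 1 was higher and 0 lower (0.725% and 0.17%).

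Of 22 listed YAP/TEAD target genes, all measured and 4 of them shared with the Hippo list, 7 were lower and 0 higher in SB against control (all clusters 3.87% and 2.51%), with a median change of -0.24 against 0.03 over all genes. Among these 7 are Ajuba, Lats2 and Amotl2, already counted as lower in the Hippo list, so the counts of the 2 lists are not separate. Ccn2, connective tissue growth factor, measured 7.77, 8.24 and 7.82 in control, 8.02, 8.68 and 8.36 in Dox, 6.68, 6.84 and 6.27 in SB and 6.55, 6.68 and 6.93 in SB+Dox. The groups with the inhibitor lay apart from those without it, and Ccn2 fell 2.54-fold from control to SB and 3.1-fold from Dox to SB+Dox (adjusted p = 3.89e-04 and 3.53e-05). Gadd45b, a stress-induced gene that also responds to other pathways, fell 2.24-fold from control to SB (log2 change -1.17, SE 0.17, adjusted p = 7.91e-04). Ankrd1, a muscle ankyrin repeat gene, measured 10.75, 10.78 and 11.07 in control, 10.84, 10.71 and 11.25 in Dox, 9.85, 9.71 and 10.08 in SB and 10.74, 10.88 and 11.15 in SB+Dox. It was low in SB alone, falling 1.98-fold from control and rising 2.06-fold from SB to SB+Dox (adjusted p = 0.00121 and 9.08e-04), while for Ccn2 the latter change was 0.12 (adjusted p = 0.734). Counts higher and lower over the list were 1 and 5 in SB+Dox against Dox (all clusters 6.97% and 3.43%), 1 and 3 in Dox against control (1.43% and 3.88%) and 2 and 0 in SB+Dox against SB (4.4% and 2.71%). They were 0 and 4 in SB+Dox against control (2.84% and 2.42%) and 1 and 0 for the interaction (0.725% and 0.17%). The median change of the list in SB+Dox against Dox was 0.00, with 11 of 22 genes positive, against -0.03 over all genes. The lower median seen in SB against control was thus not seen with doxycycline present.

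Genes known for a MEF3 or MCAT element or as sine oculis targets, 10 of 10 measured, had 6 lower and 0 higher in SB against control (all clusters 3.87% and 2.51%), with a median of -0.67 against 0.03 over all genes. The list holds Myog, the induced gene, and was chosen with earlier results of these data known, so this contrast with all genes is no independent test. In SB+Dox against SB 5 were higher and 1 lower (all clusters 4.4% and 2.71%), with a median of 0.76 against -0.05. Tnnc1, whose promoter is printed with its MCAT match, fell 4.27-fold in SB and rose 4.31-fold from SB to SB+Dox (adjusted p = 2.80e-05 and 5.83e-05). Tnnt2, printed beside it, fell 2.15-fold and rose 2.46-fold (adjusted p = 0.00264 and 0.00104). Of the other listed genes with MCAT letters, Acta1 and Acta2 fell in SB (log2 changes -0.74 and -0.60). Aldoa, Myh7 and Igfbp5, which hold the letters too, changed by 0.07, -0.02 and -0.15 from control to SB and were not called. Windows of Tnnt2, Acta1, Acta2 and Ckm hold CAGCTG, and all of these genes fell in SB. Tnnc1 and Myog fell without a CAGCTG match, and Aldoa, Myh7 and Igfbp5 have none either. The part of either set of letters in these changes was not tested. Myog, whose promoter holds the MEF3 letters, fell 4.63-fold in SB (adjusted p = 9.39e-05), while Six4, which holds them too, changed by 0.04. Ckm, muscle creatine kinase, fell 1.95-fold and rose 2-fold (adjusted p = 0.0292 and 0.0214), and its fall was lost without control replicate 1 or 2, SB replicate 1 or 2, with only the 2 groups in the fit and with every cluster tested (adjusted p 0.0594 to 0.133). Its rise was lost without SB replicate 1 or 2, without SB+Dox replicate 3, with only the 2 groups and with every cluster tested (adjusted p 0.0529 to 0.118). The single gene lower in SB+Dox against SB was Igfbp5, an IGF-binding protein gene, at -0.88 (adjusted p = 0.00399), named after its value was seen. Counts higher and lower were 1 and 1 in SB+Dox against Dox (all clusters 6.97% and 3.43%), 0 and 2 in Dox against control (1.43% and 3.88%), 0 and 2 in SB+Dox against control (2.84% and 2.42%) and 1 and 0 for the interaction (0.725% and 0.17%).

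**Figure D3:**
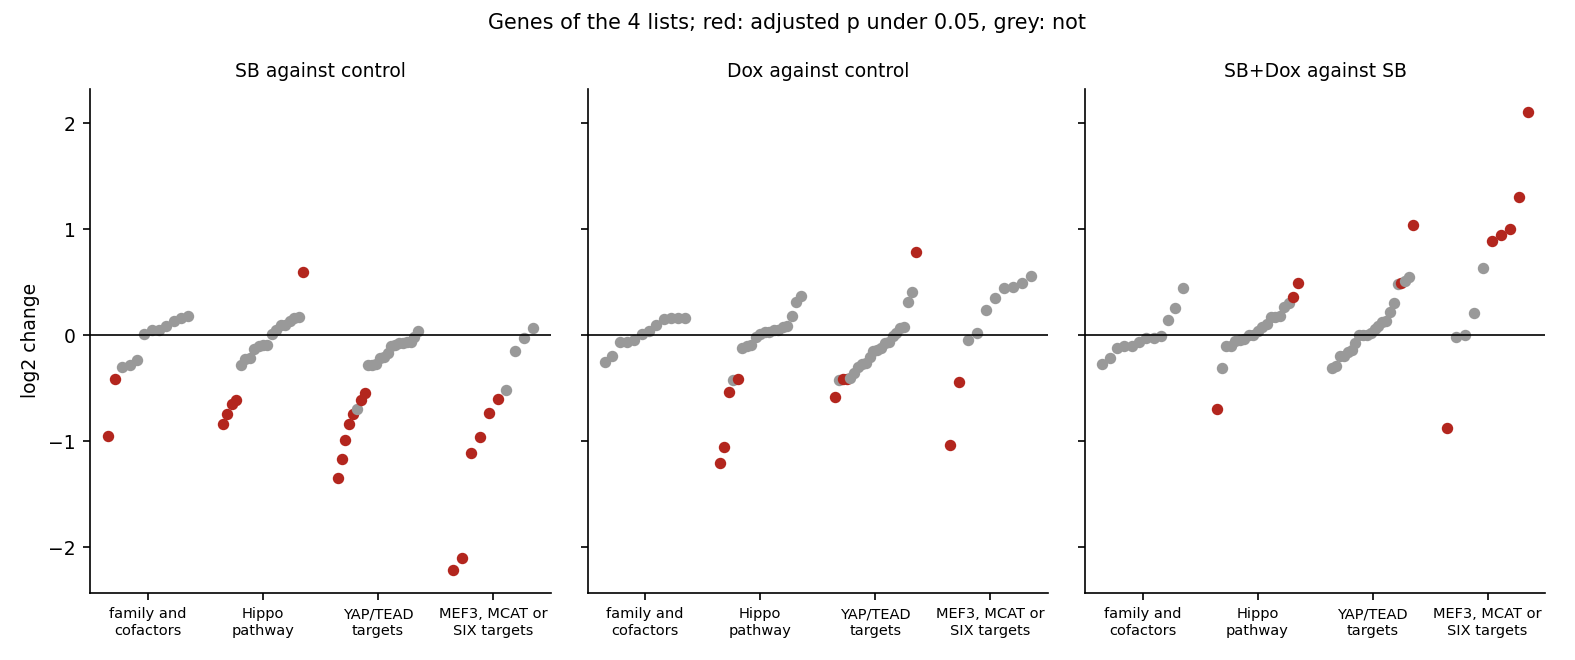
Log2 change of each measured gene of the 4 lists (points, in rising order within a list) in 3 comparisons, n = 3 arrays per group, with red for adjusted p under 0.05. The genes of the MEF3 and MCAT list reach down to -2.21 in SB against control and up to 2.11 in SB+Dox against SB.

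For each of the 4 members called somewhere, the genes with the closest pattern were found among 17317 other genes by Pearson correlation over the 12 arrays. Tead4 was followed most closely by Slc29a1, a nucleoside transporter gene (r = 0.985), Nav2 (0.978) and Fam214b (0.978). Eya1 was followed by Nrn1, the neuritin gene (r = 0.989), Pygb, brain glycogen phosphorylase (0.984), and Mras, a RAS-related GTPase gene (0.981). Eya4 was closest to Zeb2, Cnn3 and S100a16 (r = 0.93, 0.9 and 0.893), and Tead2 to Gramd1a, Mycl and Llgl1 (r = 0.963, 0.962 and 0.953). Among the members themselves Tead4 and Eya1 ran opposite to each other (r = -0.928), and Eya1 and Tead2 ran together (r = 0.849). The 12 points come from 4 groups of 3, so these coefficients mostly describe the group means. They are a description without a test.

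**Figure D4:**
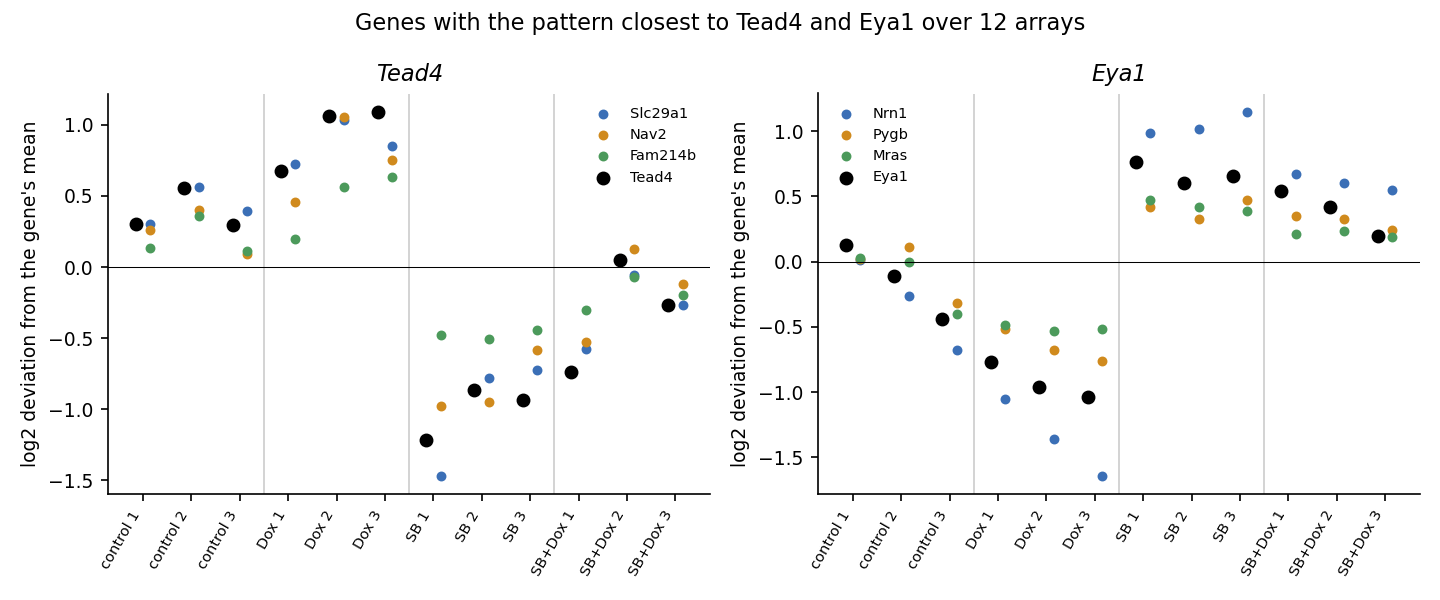
Log2 deviation from each gene's own mean over 12 arrays for Tead4 (left) and Eya1 (right) in black and the 3 genes closest to each in colour, with 1 position per array and grey lines between groups. Slc29a1, Nav2 and Fam214b lie above 0 in control and Dox with Tead4, and Nrn1, Pygb and Mras lie above 0 in SB and SB+Dox with Eya1.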

How the data were processed

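RNA of 12 arrays (4 groups of 3) was hybridised to Affymetrix arrays that read whole transcripts. The authors, per the submitters' processing notes, used RMA and Affymetrix Expression Console (versions not given in the sources used), and the deposited values are log2 signals, 1 per transcript cluster and array. Of 35557 clusters, 21789 with exactly 1 symbol (platform annotation, updated by Entrez identifier) were tested. Arrays have no depth, and 3 arrays per group limit the precision.

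A mean per group was fitted with limma 3.58.1 in R 4.3.3 (eBayes, 8 residual and 6.56 prior degrees of freedom) to all clusters, and p-values were adjusted by Benjamini-Hochberg within each comparison. A call is an adjusted p under 0.05. On data simulated for SB against control over 21789 clusters, 80% of 50 clusters changed 1.5-fold and 100% of 50 changed 2-fold were called, with 10 calls among 21589 unchanged ones. The simulation held fewer changed clusters than the 1390 called in the data, and the other comparisons were not simulated. Its rates therefore do not carry over to the calls of the members.

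The members and the gene lists were chosen with earlier results of these data known. All members were named, with up to 4 called genes per list by size in SB against control, and the 3 genes closest to each called member. Promoter sequences are from RefSeq (GRCm38.p6), and protein sequences were not used here.

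Same-numbered arrays of SB and SB+Dox deviated together (r of 0.19 to 0.49 after removing group means), a pairing seen in the data and not stated in the labels. The main fit did not pair arrays in any comparison, and the replicate block was run as an alternative. With the replicate block no member's call changed in SB+Dox against SB. Alternatives were the block, quantile normalisation, median centring, a filter on dim clusters (25th percentile), an eBayes trend, every cluster, fits of 2 groups, the other cluster of a gene and leaving out each array.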

Additional observations from a re-analysis of the deposited data

Results flagged for a closer look

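Among the named genes 3 had a doxycycline change that differed with and without the inhibitor by the interaction test in limma. Of all clusters 0.895% had such a call. These genes come from lists chosen with earlier results of these data known, so the count of 3 is a description. For Tnnc1 the difference was 1.66 (adjusted p = 0.0194), with a rise of 2.11 from SB to SB+Dox and a change of 0.44 from control to Dox. It lost its call without SB replicate 2, without SB+Dox replicate 3 and with every cluster tested (adjusted p 0.0547 to 0.123). For Amotl1 the difference was 1.01 (adjusted p = 0.0194), and the call was lost without control replicate 1, Dox replicate 2, SB replicate 2 or SB+Dox replicate 3 and with every cluster tested (adjusted p 0.0537 to 0.113). For Ankrd1 it was 0.98 (adjusted p = 0.0498), a call lost in 13 of 18 alternatives, which include leaving out any array but Dox replicate 3 and SB replicate 3 (adjusted p 0.0591 to 0.191). None of the 9 members had such a call, and groups of 3 arrays are too small for the outlier check.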

How the results depend on the processing

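Each alternative was run for every member in every comparison, and 28 of 54 such results kept their direction and their side of the threshold throughout. With the replicate number as a block Tead4 also passed in Dox against control (0.56, limma adjusted p = 0.00728). That made 2 genes there, beside 1435 of all 21789 clusters (1156 in the main fit). Tead2 in SB against control (adjusted p = 0.044) and Eya4 in SB+Dox against Dox (adjusted p = 0.0214) passed too. The block changed no other member's call. Apart from SB with SB+Dox, each array correlated best with its own number only between Dox and SB+Dox (r from 0.09). With only the 2 groups in the fit 2 genes passed in Dox against control and 0 in SB+Dox against SB. Of all clusters 1070 and 1140 passed there, against 1156 and 1550 in the main fit. With every cluster tested, which adjusts over more clusters, 0 passed in SB+Dox against SB and 0 in SB+Dox against control. Counts with 1 array left out ran from 2 to 3 in SB against control, 0 to 1 in SB+Dox against SB, 2 to 4 in SB+Dox against Dox, 1 to 2 in Dox against control, 0 to 3 in SB+Dox against control and 0 to 0 for the interaction. The shares of all clusters called with 1 array left out are not given here, so these ranges say nothing particular to the members. Tead1 passed in SB+Dox against Dox after quantile normalisation, without dim clusters, with a trend, with 2 groups and without control replicate 3, Dox replicate 2, SB replicate 2 or SB replicate 3 (lowest adjusted p = 0.0176). The causes were not tested.

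Uncalled changes near 0 turned sign. After quantile normalisation these were Eya2 in SB against control (-0.00), Eya4, Tead1 and Vgll2 in SB+Dox against SB (-0.05, -0.05 and -0.01), Six5 in Dox against control (0.03) and Tead2 in the interaction (-0.02). After centring they were Six4 in SB against control (-0.00) and Six5 in Dox against control (0.02). With 1 array left out Six4 ran from -0.20 to 0.21 in SB against control, -0.26 to 0.00 in SB+Dox against SB, -0.18 to 0.17 in SB+Dox against Dox, -0.30 to 0.11 in Dox against control, -0.31 to 0.10 in SB+Dox against control and -0.22 to 0.20 in the interaction. Six5 ran from -0.09 to 0.06 in Dox against control, and Eya2 from -0.02 to 0.10 in SB against control and -0.03 to 0.21 in Dox against control. In SB+Dox against SB Eya4 ran from -0.05 to 0.20, Tead1 from -0.07 to 0.16 and Vgll2 from -0.09 to 0.15. Vgll2 ran from -0.01 to 0.14 in Dox against control. In the interaction Tead2 ran from -0.08 to 0.21, Tead4 from -0.05 to 0.34 and Vgll2 from -0.17 to 0.07.

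For the lists, run under the same alternatives after their values were seen, calls in SB against control ranged from 1 to 3 among family members and cofactors, 3 to 5 in the Hippo list, 7 to 8 among YAP/TEAD targets and 4 to 7 among genes of the MEF3 and MCAT list. In Dox against control they ranged from 2 to 5, 0 to 6 and 1 to 4 in the last 3 of these lists, in SB+Dox against SB from 0 to 1, 2 to 4, 2 to 4 and 5 to 7 over all 4, in SB+Dox against Dox from 1 to 4, 6 to 10, 5 to 8 and 1 to 5, and in SB+Dox against control from 0 to 2, 1 to 6, 3 to 7 and 2 to 2 in the order of the lists. The shares of all clusters called under each alternative are not set beside these list counts. No scaling moved the median of all clusters by 0.1 or more. Signal over background was not available as a limit for Eya2, which lay under the array medians, or for Six5, which lay near them.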

Other observations

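Among genes of the Hippo list chosen after their values were seen, the angiomotin genes Amot and Amotl1, whose proteins bind YAP and hold it at cell junctions, fell with doxycycline alone, 2.31-fold and 2.08-fold (log2 changes -1.21 and -1.06, SE 0.15 and 0.12, limma adjusted p = 1.93e-04 and 1.45e-04, all 3 Dox arrays below all 3 control arrays). Amot measured 6.95, 6.86 and 6.47 in control, 5.69, 5.40 and 5.58 in Dox, 7.18, 7.23 and 7.67 in SB and 6.67, 6.54 and 6.79 in SB+Dox, and so had its lowest values in Dox and its highest in SB, as Eya1 had. It fell by 0.69 from SB to SB+Dox (SE 0.15, adjusted p = 0.0098). Amotl1 measured 8.56, 8.34 and 8.49 in control, 7.44, 7.37 and 7.41 in Dox, 8.06, 8.37 and 8.55 in SB and 8.20, 8.17 and 8.46 in SB+Dox, and was low in Dox alone. Both falls with doxycycline alone were called under all 19 alternatives. The third angiomotin gene, Amotl2, changed by 0.31 with doxycycline alone (adjusted p = 0.173) and fell 1.53-fold from control to SB. Vgll4, which competes with YAP for TEAD proteins, was lower in SB+Dox than in Dox by 0.71 (adjusted p = 0.00128) and also came to notice through its value.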
